A study of Sus scrofa with 12 samples.

Results

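ARRDC4 and TXNIP are alpha-arrestins, and they were followed here through the stented coronary arteries of pigs as 2 of the 6765 genes that have a probe set with a single gene symbol. Both were chosen by name, as the glucose-responsive members of their family, and ARRDC4 was chosen with earlier measured values of these arrays known, in which it was high with one of the stents. Their differences between stents are therefore given as a description, with no test. Each gene has 1 probe set on the array, Ssc.17005.1.A1_at for ARRDC4 and Ssc.16648.1.S1_at for TXNIP, and both were among the 5793 genes kept by the filter on low signals. The other mammalian alpha-arrestins, ARRDC1, ARRDC2, ARRDC3 and ARRDC5, share or lack a probe set of their own in the annotation and were not analysed here.

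Alpha-arrestins are adaptor proteins that lie under the cell membrane, bring ubiquitin ligases to membrane proteins and so take part in the uptake and turnover of those proteins. TXNIP also binds thioredoxin and holds back its reducing activity, and both TXNIP and ARRDC4 lower the uptake of glucose when they are abundant. Their genes are classical targets of MondoA and ChREBP, transcription factors that pair with MLX and respond to sugar phosphates in the cell. Sirolimus binds the immunophilin FKBP12 and inhibits mTORC1, a kinase complex that promotes growth and glucose use, and zotarolimus is a sirolimus analog in which a tetrazole takes the place of a hydroxyl group.

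The study set 3 stent types side by side in Yorkshire farm pigs, and its title speaks of overlapping stents. BMS stands for the bare metal stent, SES for the stent that releases sirolimus and ZES for the stent that releases zotarolimus, all placed at angioplasty and all collected on day 28, with no artery that lacked a stent. Each group held 4 artery segments from 2 pigs, with segments 1 and 2 from one pig and segments 3 and 4 from the other, and each pig carried 1 stent type only. In most pigs one segment was right coronary (RCA) and the other left anterior descending (LAD), except in one SES pig, which gave a left circumflex (LCX) and an RCA segment. Tissue was taken off the stent by hand and its total RNA was measured on a pig expression array, 1 array per segment. The ages of the pigs are not given in the labels used here, and stent type and pig cannot be fully told apart with 2 pigs per stent.

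Signals are on a log2 scale, so a difference of 1 is a doubling. A probe set was called where limma's adjusted p was under 0.05 over the 16799 probe sets tested. Several features of whole arrays moved with the stent. The background level, read from control probe sets, was 5.27 to 5.96 on the BMS arrays, 4.15 to 5.39 on the SES arrays and 4.19 to 5.16 on the ZES arrays. The gap between the 3′ and 5′ probe sets of GAPDH, a sign of RNA quality, was 3.64 to 4.63 for BMS, 2.33 to 3.02 for SES and 3.44 to 3.91 for ZES. The spike-in controls read 15.7 to 16.5 for BMS, 14.6 to 15.6 for SES and 14.6 to 15.9 for ZES. The control for 28S ribosomal RNA stood apart on BMS 1, at 14.57, and on ZES 2, at 14.10, against 6.95 to 10.74 on the other arrays. The part of these features in the results was not tested beyond the values given beside them.

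ARRDC4 was high in all 4 arteries with a sirolimus-eluting stent and lower in all 8 others. With bare metal stents its log2 signal was 9.22 in BMS 1, 10.10 in BMS 2, 9.70 in BMS 3 and 11.38 in BMS 4. With sirolimus-eluting stents it was 13.54 in SES 1, 13.34 in SES 2, 13.54 in SES 3 and 12.58 in SES 4. With zotarolimus-eluting stents it was 11.39 in ZES 1, 9.79 in ZES 2, 10.56 in ZES 3 and 10.45 in ZES 4. The lowest SES array thus lay above the highest of the other 8, while the BMS and ZES values overlapped over most of their range. Every one of these values was well clear of the background level of its array, by 3.25 in BMS 1 at the least and by 9.19 in SES 2 at the most.

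**Figure D1:**
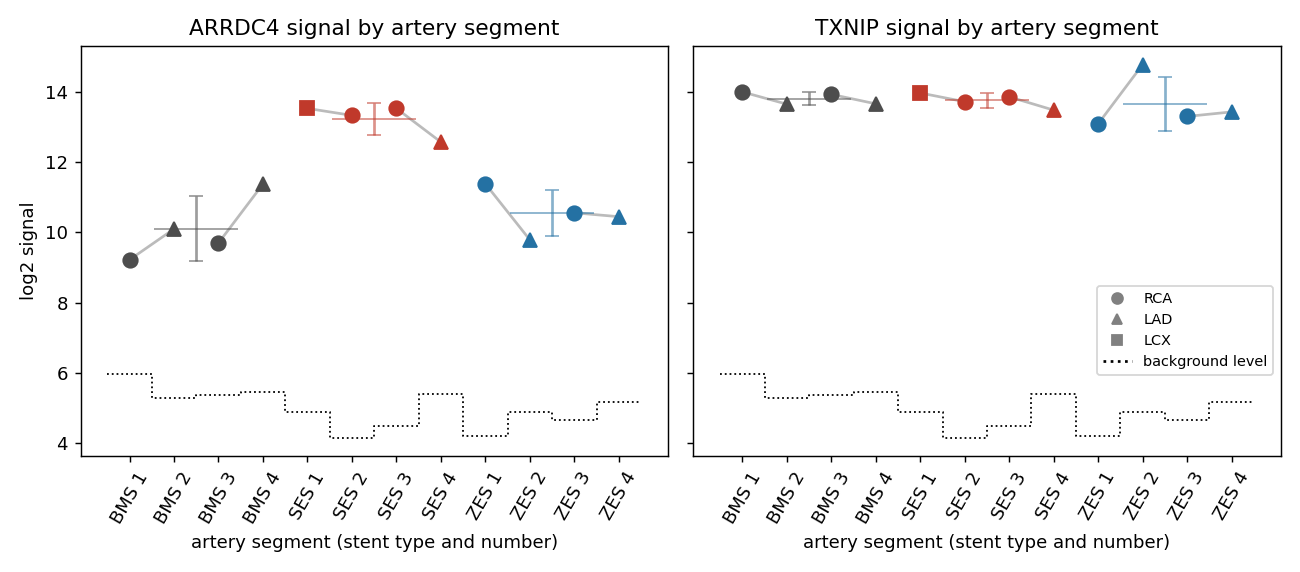
Log2 signal of ARRDC4 (left) and TXNIP (right) in each of the 12 artery segments, with grey lines joining the segments of one pig and symbols marking the artery. Bars give the group mean and SD of 4 segments and the dotted line the background level of each array. The 4 SES values of ARRDC4, 12.58 to 13.54, sit above all others, while TXNIP is lowest in ZES 1, at 13.10, and highest in ZES 2, at 14.79.

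The group means of ARRDC4 were 13.25 ± 0.46 (SD, n = 4) for SES, 10.55 ± 0.66 for ZES and 10.10 ± 0.93 for BMS. As linear signals their geometric means were 9726, 1496 and 1097. The step from ZES down to BMS was smaller than the spread within either group, so these neighbours in the order did not differ beyond it. The pig means were 13.44 and 13.06 for SES, 10.59 and 10.51 for ZES and 9.66 and 10.54 for BMS, so both SES pigs lay above the other 4 while the ZES and BMS pigs had no fixed order. In tissue taken whole, fewer cells of a type that holds the RNA and less RNA per cell cannot be told apart, which applies to each value given here.

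The fitted difference of ARRDC4 was 3.15 ± 0.42 (SE) for SES minus BMS, with a 95% interval from 2.26 to 4.04. This is 8.86-fold, with an interval from 4.79 to 16.4. It was among the 83 probe sets called higher in this comparison, which are 0.494% of those tested, and 132 probe sets had a larger positive difference. For ZES minus BMS the difference was 0.45 ± 0.42, from -0.44 to 1.34, or 1.36-fold. For ZES minus SES it was -2.70 ± 0.42, from -3.59 to -1.81, so that the signal was 6.5-fold lower with zotarolimus, with an interval from 3.51 to 12. It was among the 7 probe sets called lower there, 0.0417% of those tested. These calls are what chose the gene, and nothing is read from them.

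**Figure D2:**
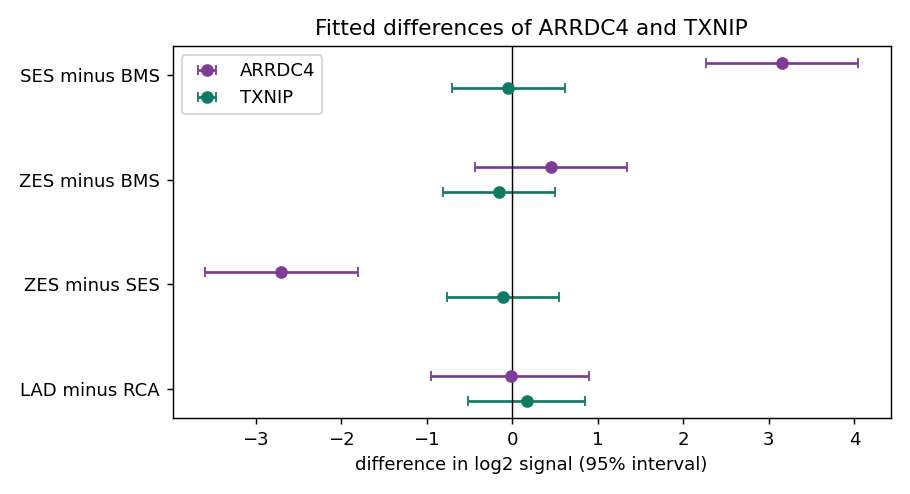
Fitted difference in log2 signal of ARRDC4 and TXNIP for the 3 stent comparisons over 12 arrays and for LAD minus RCA over 5 pigs, with 95% intervals. ARRDC4 reads 3.15 for SES minus BMS and -2.70 for ZES minus SES, and every TXNIP interval holds 0.

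Leaving out each array in turn gave 2.84 to 3.57 for SES minus BMS and -2.98 to -2.44 for ZES minus SES, and 0.14 to 0.87 for ZES minus BMS. Adding the spike-in level to the fit gave 2.67 for SES minus BMS, and adding the GAPDH gap gave 3.84. The ZES minus BMS difference moved most in proportion, to 0.05 with the spike-in level and to 0.69 with the GAPDH gap. It was 0.14 without BMS 1 and 0.87 without BMS 4, the lowest and the highest BMS arrays. Sirolimus and zotarolimus, which share the same binding protein and target, were each measured at the dose of their own stent, and those doses are not given in the labels used here. The ZES minus SES values therefore stand as a description of stents and not of drugs at matched dose.

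TXNIP, by contrast, was near one level in nearly every artery. Its log2 signal was 14.01 in BMS 1, 13.66 in BMS 2, 13.94 in BMS 3 and 13.67 in BMS 4. In the SES arteries it was 13.98, 13.73, 13.87 and 13.49 for segments 1 to 4. In the ZES arteries it was 13.10, 14.79, 13.31 and 13.44 in the same order. The BMS and SES values overlapped almost fully. Of the ZES arrays, 3 lay below every BMS and SES array, and ZES 2 lay above all 11 others.

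The group means of TXNIP were 13.82 ± 0.18 (SD, n = 4) for BMS, 13.77 ± 0.21 for SES and 13.66 ± 0.77 for ZES, and no neighbours in this order differed beyond their spread. The geometric mean signals were 14436, 13943 and 12946. The fitted difference was -0.05 ± 0.31 for SES minus BMS, with a 95% interval from -0.71 to 0.61. It was -0.16 ± 0.31 for ZES minus BMS, from -0.81 to 0.50, and -0.11 ± 0.31 for ZES minus SES, from -0.76 to 0.55. Intervals of this width leave room for a shift in either direction and do not show equal levels.

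The ZES values of TXNIP rested on ZES 2, the array with the high 28S control. Without it, ZES minus BMS was -0.54 and ZES minus SES was -0.49. BMS 1, the other array with a high 28S control, read 14.01, the highest of the BMS arrays, but BMS 3, with a 28S control of 10.74, read 13.94. A link between the 28S control and TXNIP was not tested. With the GAPDH gap as a covariate the SES minus BMS difference of TXNIP was -0.46, and with the spike-in level it was -0.13.

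The arteries of one pig were compared next, a comparison that played no part in the choice of the genes. Over the 5 pigs with both vessels, ARRDC4 differed between LAD and RCA by -0.02 ± 0.43, with a 95% interval from -0.95 to 0.90 and a limma adjusted p of 0.993. TXNIP differed by 0.17 ± 0.31, from -0.52 to 0.85, with a limma adjusted p of 0.930. ARRDC4 was higher in the LAD in 2 of 5 pigs and TXNIP in 2 of 5, so neither gene showed one direction. No probe set at all was called in this comparison by limma (0% of 16799), although 1153 had an unadjusted p under 0.05. Tissue markers leaned to one vessel in these pigs, with a positive LAD minus RCA difference for 11 of 11 smooth muscle markers (median 1.10, 6 at an unadjusted p under 0.05) and for 8 of 8 heart muscle markers (median 1.86, 4 at an unadjusted p under 0.05), beside 6.49% of all genes at that p. Limma called none of these markers, and their part in the ARRDC4 and TXNIP gaps was not tested. Of the heart muscle markers only TNNC1 (1.75 ± 0.48) and PLN (0.69 ± 0.56) were above the background level on every array. The differences of the other heart markers are thus those of a fit and not measured folds. Of the smooth muscle markers MYLK and SYNM were at or under that level on some arrays. The ARRDC4 and TXNIP means near 0 hide gaps of opposite sign.

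For ARRDC4 the LAD minus RCA gap was 0.88 and 1.67 in the BMS pigs, -0.96 in the SES pig that had both vessels, and -1.60 and -0.11 in the ZES pigs. For TXNIP it was -0.35 and -0.27 in the BMS pigs, -0.38 in the SES pig, and 1.70 and 0.13 in the ZES pigs. In the other SES pig the LCX minus RCA gap was 0.20 for ARRDC4 and 0.25 for TXNIP. Each gene thus had one sign in both BMS pigs and the other sign in both ZES pigs, and the signs of the genes were opposite to each other. The difference of the gaps, ZES pigs minus BMS pigs, was -2.13 ± 0.72 for ARRDC4, with a limma adjusted p of 0.531, and 1.22 ± 0.58 for TXNIP, with an adjusted p of 0.620. Neither passed the threshold, and this comparison was added after the values were seen.

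The genes whose signals followed ARRDC4 most closely over the 12 arrays were CCL24 (Pearson r 0.946), FBP1 (0.943), CTSC (0.939), CCL5 (0.935) and C17H8orf4 (0.931). CCL24 and CCL5 are chemokines, FBP1 is a fructose bisphosphatase of sugar synthesis and CTSC is a lysosomal protease. These values describe 12 arrays that share pigs and stents, and since the genes were picked for likeness to ARRDC4 no test is given. FBP1 read 10.91, 10.30, 11.02 and 13.62 in the BMS arteries, 15.01, 15.24, 15.00 and 14.38 in the SES arteries and 13.99, 11.23, 12.28 and 10.99 in the ZES arteries. Like ARRDC4, it was highest among the BMS arrays in BMS 4 and among the ZES arrays in ZES 1, and lowest of the SES arrays in SES 4. CCL5 read 7.48 to 9.01 with BMS, 11.19 to 12.77 with SES and 8.71 to 10.51 with ZES, so its SES arrays too lay above all others. The SES minus BMS differences of the 5 genes ran from 2.54 for CTSC to 3.54 for C17H8orf4. Genes picked for likeness to ARRDC4 share its high SES values by that choice, so nothing is read from these differences.

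Once the mean of each stent group was taken off, other genes came first. They were DPM1 (r 0.952), MRPL43 (0.947), FAM122B (0.933), KATNBL1 (0.931) and TLK2 (0.930), which vary with ARRDC4 among arteries of the same stent. DPM1, a subunit of dolichol phosphate mannose synthase, differed by -0.02 ± 0.27 for SES minus BMS, and MRPL43, a protein of the mitochondrial ribosome, by 0.61 ± 0.36. The genes nearest to TXNIP over all arrays were DECR1 (0.883), TNS3 (0.860), EDF1 (0.844), RPL22L1 and, as the fifth, DBI (0.820). With stent means off they were TINF2 (0.927), TIMM8B (0.918), GCAT (0.896), LOC100514147 (0.887) and DECR1 (0.882). By ranks (Spearman) the first set ran lower, from 0.601 for EDF1 to 0.783 for DECR1, except DBI at 0.930. The second set ran from 0.622 for GCAT to 0.839 for TINF2. How far these likenesses rest on ZES 2, where TXNIP stood apart, was not tested. DECR1, which acts in the oxidation of unsaturated fatty acids, read 9.14 in ZES 2 and 7.04 in ZES 1, its highest and lowest values, as TXNIP did. TINF2 read 10.07 in ZES 2 against 7.77 to 8.90 elsewhere, the array on which TXNIP was highest. Among 5792 other genes TXNIP came 3523rd in likeness to ARRDC4 over all 12 arrays (r -0.181), and 4507th with stent means off (r -0.482).

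Outside the family, CXCL13 and COASY are named after their values were seen, since both were called for SES minus BMS and for ZES minus SES. CXCL13, a chemokine for B cells whose signal in BMS 2 was under the background level, rose by 4.74 ± 0.68 for SES minus BMS (limma adjusted p 0.00725) and fell by 5.13 on the log2 scale for ZES minus SES (0.00712). COASY, an enzyme of coenzyme A synthesis, went the other way, with -2.96 ± 0.48 (0.0150) and 2.67 ± 0.48 (0.0461). Over all probe sets 114 were called for SES minus BMS (0.679%), 83 higher and 31 lower (0.185%). For ZES minus SES 12 were called (0.0714%), 5 of them higher (0.0298%). For ZES minus BMS limma called 0 (0%), with 1510 at an unadjusted p under 0.05. The SES calls hang on few arrays, since 0 probe sets were called in either comparison with SES without SES 3, against 415 and 158 without SES 4.

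The lists that follow were put together with earlier results of these data known, and each is described by its counts and by its median over the genes tested. Over all 5793 genes limma called 39 higher (0.673%) and 13 lower (0.224%) for SES minus BMS. An unadjusted p under 0.05 was reached by 2408 of 16799 probe sets (14.3%) and by 911 genes (15.7%) in that comparison, and by 449 genes (7.75%) for ZES minus BMS. Over all 5793 genes the median difference was -0.006 for SES minus BMS, 0.012 for ZES minus BMS and 0.010 for ZES minus SES. The relatives of the pair that could be measured were the beta-arrestin ARRB2 and the retromer subunits VPS26A and VPS26B, which have an arrestin-like fold. VPS29, a retromer subunit of another fold, was listed with them. The SES mean was below the BMS mean for all 4, the median was -0.15, and limma called none of them (1 at an unadjusted p under 0.05). VPS26A gave -0.88 ± 0.26 (limma adjusted p 0.118), VPS29 -0.13 ± 0.30 (0.878) and VPS26B -0.16 ± 0.42 (0.896). The other probe sets of VPS26A read -0.57 and 0.27, so its own probe sets disagreed in sign.

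The factors that carry the sugar signal to both genes could hardly be read. MLX, MLXIP (MondoA), MLXIPL (ChREBP) and MAX have no probe set with that symbol alone. Of this network MXD3, MXD4, MXI1 and MYC were tested, with a median of -0.22 for SES minus BMS and 0 of 4 called by limma (1 at an unadjusted p under 0.05). MXD4, a MAX partner that represses transcription, gave -2.75 ± 0.96 (limma adjusted p 0.185), MYC gave 1.40 ± 0.85 (0.470) and MXI1 -0.24 ± 0.47 (0.855). MXD4 was at or under the background level on 1 SES array, and MYC on 1 BMS and 2 ZES arrays. KLF10, another target of the sugar-sensing factors, gave 0.58 ± 0.36 (0.488) for SES minus BMS and 0.69 ± 0.36 (0.602) for ZES minus BMS.

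Genes of glucose uptake, which both alpha-arrestins lower, and of glycolysis included a called gene. Of 23 tested genes 15 were higher with SES than with BMS in their means, beside 49.5% of all genes. The median was 0.23, and limma called 1, HK3, against 0.673% called higher over all genes. With limma's unadjusted p under 0.05 there were 7 higher and 1 lower, beside 15.7% of all genes. For ZES minus BMS 15 of 23 were higher too, beside 50.7% of all genes, with a median of 0.44 and 0 called. In that comparison 2 higher and 1 lower had an unadjusted p under 0.05, beside 7.75% of all genes. PFKL, one of the 8 genes lower with SES, gave -2.54 ± 0.74 (limma adjusted p 0.116) for SES minus BMS. It was at or under the background level on 1 BMS and 3 SES arrays. HK3, a hexokinase best known from myeloid blood cells, read 8.19, 6.69, 8.07 and 9.32 in BMS, 12.68, 12.89, 11.47 and 10.62 in SES and 11.95, 7.28, 10.75 and 10.02 in ZES. Every SES array lay above every BMS array, while ZES spread over both ranges. HK3 rose by 3.85 ± 0.77 for SES minus BMS (limma adjusted p 0.0290), and for ZES minus SES it gave -1.91 ± 0.77 (0.401). The call was lost without any one of BMS 1, BMS 2, BMS 3, SES 1, SES 2 or SES 3, with adjusted p from 0.0107 to 0.138 over the 12 left-out arrays. Its 2 other probe sets were too dim to be tested.

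Among the glucose transporters, SLC2A1 and SLC2A3 had their highest group mean with SES and SLC2A4 with BMS, and none of these passed the test. SLC2A1, the transporter GLUT1, read 6.38, 6.09, 7.19 and 8.76 in BMS, 9.13, 9.79, 9.15 and 8.83 in SES and 9.41, 9.04, 8.94 and 7.33 in ZES. Its SES minus BMS difference was 2.12 ± 0.57 (limma adjusted p 0.0893), and its ZES minus BMS difference was 1.57 ± 0.57 (0.440). SLC2A3, the transporter GLUT3, read 8.86 to 10.81 in BMS, 11.96 to 12.94 in SES and 7.50 to 12.56 in ZES, and gave 3.04 ± 0.72 (0.0610) for SES minus BMS. In BMS 4 and ZES 1, the arrays with the highest ARRDC4 of their groups, both transporters also read highest of their groups. The SES group did not show this. There both transporters were highest in SES 2, where ARRDC4 was 13.34 against 13.54 in SES 1 and SES 3. SLC2A4, the transporter GLUT4, named here after its values were seen, had means of 5.35 in BMS, 4.67 in SES and 3.95 in ZES, and gave -0.68 ± 0.89 (limma adjusted p 0.768) for SES minus BMS. It was at or under the background level on 2 BMS, 2 SES and 4 ZES arrays. HK2 has no probe set with that symbol alone.

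**Figure D3:**
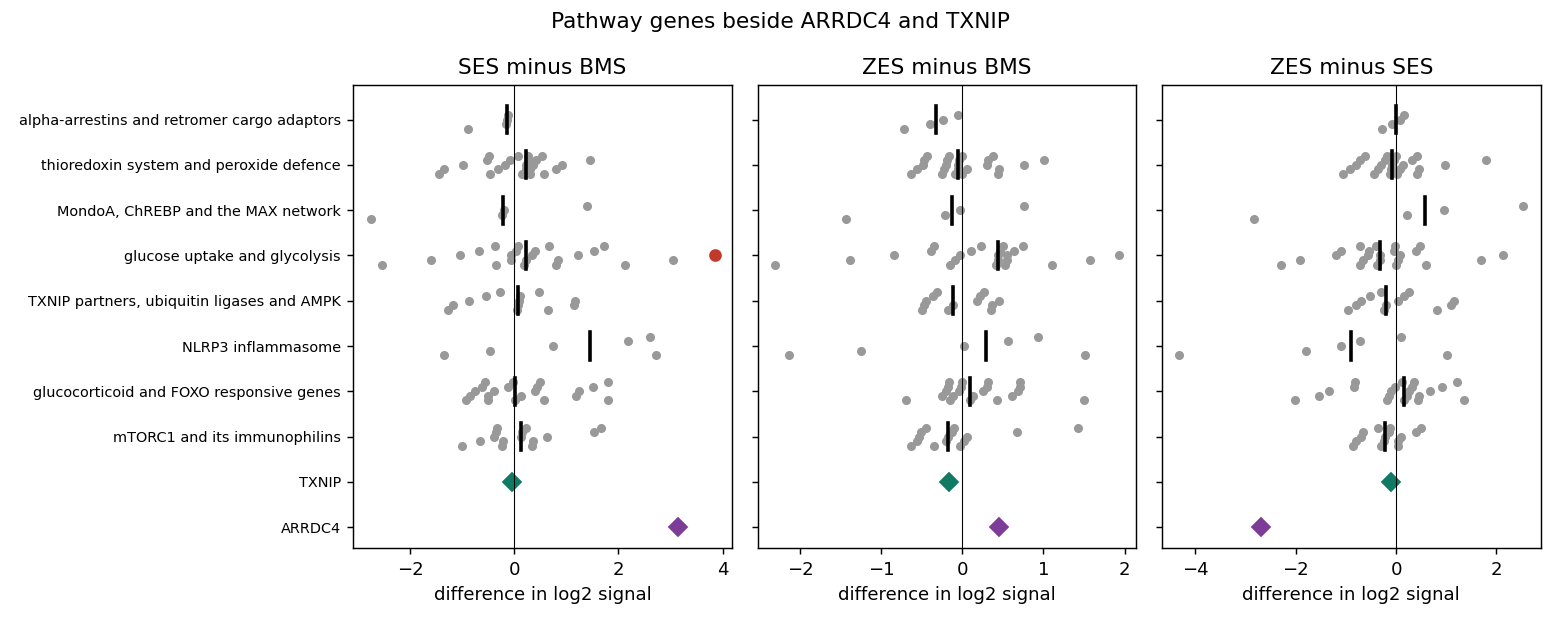
Difference in log2 signal for 3 stent comparisons; each grey point is a tested gene of the pathway named at the left, a red point a gene called by limma, a black bar the list's median, and diamonds mark TXNIP and ARRDC4. HK3, at 3.85 for SES minus BMS, is the only called gene of these 8 lists, and ARRDC4 at 3.15 lies near the upper end of the points.

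Thioredoxin and the enzymes around it, the partners of TXNIP, showed no called gene. Of 24 tested genes 15 had a higher mean with SES than with BMS, beside 49.5% of all genes. The median was 0.23, and limma called 0 (5 at an unadjusted p under 0.05, 4 of them higher). TXN, thioredoxin itself, read 14.77 to 15.31 in BMS, 15.43 to 15.72 in SES and 14.42 to 14.98 in ZES. Every SES array lay above all the others, by a small margin, with 0.56 ± 0.23 for SES minus BMS (limma adjusted p 0.269) and -0.79 ± 0.23 (0.220) for ZES minus SES. The second probe set of TXN gave 0.82 ± 0.22 (0.0962) and -1.02 (0.0839).

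TXNRD1, which reduces thioredoxin, gave 0.42 ± 0.48 (limma adjusted p 0.738) for SES minus BMS, and TXN2, the mitochondrial form, -0.98 ± 0.52 (0.407). SOD2, the mitochondrial superoxide dismutase, read 11.14 to 12.34 in BMS, 12.52 to 13.53 in SES and 11.66 to 13.12 in ZES, with 1.45 ± 0.35 (0.0688) for SES minus BMS. PRDX2, a peroxiredoxin, gave 0.81 ± 0.27 (0.161), and SOD3, the extracellular superoxide dismutase, -1.34 ± 0.44 (0.161).

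Ubiquitin ligases and other partners of TXNIP had a median of 0.07 over 13 tested genes, and limma called 0 for SES minus BMS (2 at an unadjusted p under 0.05). ITCH, a ligase that marks TXNIP for breakdown, gave 0.65 ± 0.43 (limma adjusted p 0.513), and WWP1, a ligase of the same family, 1.16 ± 0.57 (0.369). HDAC1, a histone deacetylase, gave 1.14 ± 0.41 (0.189), and PRKAG2, a subunit of the energy sensor AMPK, -1.26 ± 0.44 (0.180). NEDD4 and NEDD4L have no probe set with that symbol alone.

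The NLRP3 inflammasome, to which TXNIP has been linked, was read only through a list of 6 genes without NLRP3 itself. They were CASP1, GSDMD, the cytokines IL1A, IL1B and IL18, and the receptor IL1R1. Their median was 1.46 for SES minus BMS and limma called 0 (5 of 6 at an unadjusted p under 0.05, 4 of them higher, beside 15.7% of all genes). IL1B, a cytokine the inflammasome releases, read 6.56, 5.13, 7.72 and 9.25 in BMS, 9.77, 10.88, 8.83 and 7.89 in SES and 6.66, 3.03, 5.52 and 4.87 in ZES. All SES arrays lay above all ZES arrays, and BMS overlapped with both. IL1B gave 2.18 ± 0.88 (limma adjusted p 0.261) for SES minus BMS and -4.32 ± 0.88 (0.0660) for ZES minus SES. It was at or under the background level on 1 BMS and 2 ZES arrays, and IL1A and IL1R1 were so on 2 BMS arrays each, so these differences are those of a fit and not measured folds. The second IL1B probe set gave 4.50 ± 1.40 (0.139) and -4.45 (0.253). IL1A gave 2.73 ± 0.91 (0.167) for SES minus BMS, IL1R1, the receptor, 2.61 ± 1.0 (0.231), and CASP1, the protease of the complex, -1.35 ± 0.42 (0.139). GSDMD gave -0.46 ± 0.52 (limma adjusted p 0.731). CASP1 and GSDMD were thus the 2 genes of this list with a lower mean in SES than in BMS.

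TXNIP also responds to glucocorticoids and to FOXO factors, and 21 genes of that kind had a median of 0.02 for SES minus BMS, with 0 called by limma (3 at an unadjusted p under 0.05). KLF4, a transcription factor of vessel wall cells, read 7.90 to 9.43 in BMS, 9.26 to 10.85 in SES and 7.49 to 8.97 in ZES, with 1.81 ± 0.45 (limma adjusted p 0.0761) for SES minus BMS and -2.01 ± 0.45 (0.0953) for ZES minus SES. DUSP1, a phosphatase of MAP kinases, gave 1.80 ± 0.53 (0.118), and SGK1, a kinase, 1.19 ± 0.42 (0.193). FKBP5 and TSC22D3, textbook glucocorticoid targets, gave -0.12 ± 0.28 (0.885) and 0.44 ± 0.29 (0.513). PDK4, a FOXO target that turns cells from glucose to fat, gave -0.85 ± 0.80 (0.665).

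The target of both drugs could be read at the RNA level in 15 genes of mTORC1 and its immunophilins, with a median of 0.12 for SES minus BMS and -0.17 for ZES minus BMS. Limma called 0 in each (3 and 1 at an unadjusted p under 0.05). FKBP1A, which encodes the protein that binds sirolimus, gave 0.63 ± 0.27 (limma adjusted p 0.291) for SES minus BMS and -0.03 ± 0.27 (0.982) for ZES minus BMS. Its paralog FKBP1B gave 1.67 ± 0.50 (0.125) and 1.43 ± 0.50 (0.427). RPS6, a ribosomal protein whose phosphorylation is a readout of mTORC1, gave -0.66 ± 0.27 (0.263). MTOR and DDIT4, an inhibitor of mTORC1, have no probe set with that symbol alone.

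Markers of the cell types in the tissue differed between the arrays as well. The mean of 11 smooth muscle markers was 11.63 to 12.71 in BMS, and it was 9.46, 9.18, 9.72 and 11.96 in SES 1 to 4 and 10.10, 13.22, 12.26 and 12.36 in ZES 1 to 4. The SES mean was below the BMS mean for all 11 genes, the median was -2.09, and limma called 0 (9 of 11 at an unadjusted p under 0.05, beside 15.7% of all genes). SMTN and CNN1, proteins of the contractile apparatus, gave -2.09 ± 0.54 and -3.15 ± 0.81, both at a limma adjusted p of 0.0804, and TPM2, a tropomyosin, -1.69 ± 0.44 (0.0818). SES 4, the SES array with the least ARRDC4, had the most of these markers in its group. Ranked by ARRDC4 from high to low, the ZES arrays were ZES 1, ZES 3, ZES 4 and ZES 2, and ranked by the smooth muscle mean they came in the reverse order. The other groups had no such order throughout, since BMS 2 had the second highest ARRDC4 of its group, 10.10, with the highest smooth muscle mean, 12.71, and SES 2 had the lowest smooth muscle mean, 9.18, with the third highest ARRDC4, 13.34. ACTA2, the actin that marks smooth muscle of the artery wall, read 13.44 or above on every array.

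The mean of 6 T and NK cell markers was 4.54 to 5.48 in BMS, 6.46 to 7.90 in SES and 5.06 to 7.17 in ZES. The background level of the BMS arrays was 5.27 to 5.96, so the BMS means lay near it. The median for SES minus BMS was 2.07, with 5 higher and 1 lower among the 6 markers. Of these CD3E, a part of the T cell receptor complex, rose by 4.90 ± 0.83 (limma adjusted p 0.0172) and SH2D1A, an adaptor of T and NK cells, by 3.72 ± 0.75 (0.0290) for SES minus BMS, which is 2 of 6 genes beside 0.673% called higher over all genes. CD3E was at or under the background level on all 4 BMS arrays and SH2D1A on 3 of them, so the sizes of both differences are those of a fit and not measured folds. Both calls were lost without SES 3, where limma called 0. CD3G and LCK were at or under the background level on 3 BMS arrays each and CD8A on 2. CD2, above background on every array, gave -0.13 ± 0.52 (limma adjusted p 0.937) for SES minus BMS. CD3D, CD4 and PRF1 were too dim to be tested. ZES 1, ZES 2 and ZES 3 had T and NK means of 7.17, 6.37 and 6.97, within or close to the SES range, while their ARRDC4 signals of 11.39, 9.79 and 10.56 lay below every SES array. The mean of 8 monocyte and macrophage markers overlapped between the groups, at 10.20 to 11.55 in BMS, 10.28 to 11.16 in SES and 10.42 to 10.82 in ZES, with a median difference of -0.36 for SES minus BMS and 0 called by limma (3 at an unadjusted p under 0.05). MRC1, a mannose receptor, gave 2.09 ± 0.68 (limma adjusted p 0.157), FCER1G -0.79 ± 0.31 (0.245) and CD14 0.90 ± 0.40 (0.308).

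**Figure D4:**
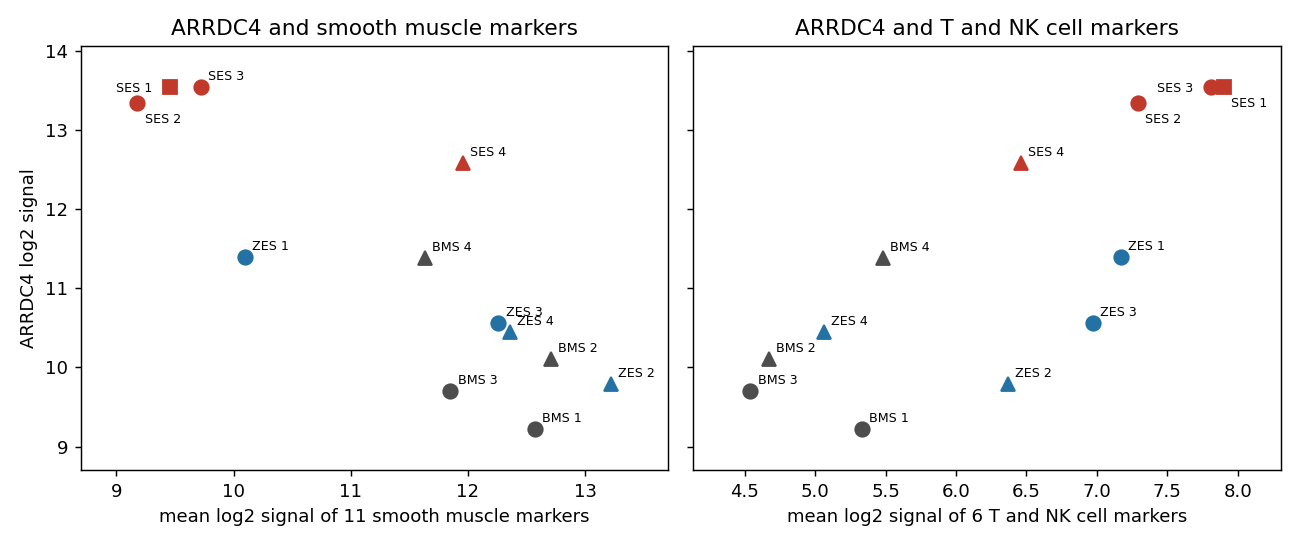
Log2 signal of ARRDC4 in each artery segment against the mean log2 signal of 11 smooth muscle markers (left) and of 6 T and NK cell markers (right), coloured by stent as labelled at each point; circles are RCA, triangles LAD and the square LCX. SES 4, at 12.58, is the SES array with the lowest ARRDC4, the highest smooth muscle mean (11.96) and the lowest T and NK mean (6.46) of its group.

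Endothelial, heart muscle and fat markers were also read, since the dissected tissue can hold each. The endothelial mean was 5.53 to 6.41 in BMS, 6.20 to 6.74 in SES and 6.66 to 7.76 in ZES, the highest being ZES 2, where TXNIP was highest too. The heart muscle mean was 4.89 to 8.53 in BMS, 4.61 to 9.07 in SES and 5.62 to 9.07 in ZES, and the fat mean was 7.02 to 8.06, 7.68 to 8.45 and 7.26 to 8.34. The medians for SES minus BMS were 0.39 over 9 endothelial genes, -0.65 over 8 heart genes and 0.71 over 5 fat genes, with 0 called by limma in each (3, 2 and 1 at an unadjusted p under 0.05). For SES minus BMS the endothelial cadherin CDH5 gave 1.88 ± 0.69 (limma adjusted p 0.210), ESAM -1.75 ± 0.78 (0.307) and VWF 1.96 ± 0.89 (0.323), with CDH5 and VWF at or under the background level on 2 BMS arrays each. Of the heart list PLN gave -2.75 ± 0.63 (0.0569), TNNC1 -3.11 ± 0.98 (0.144) and TTN, at or under background on 3 BMS arrays, 1.80 ± 1.18 (0.513). Of the fat list PPARG gave 1.18 ± 0.55 (0.338), LPL 1.09 ± 0.66 (0.465) and LEP -0.58 ± 0.75 (0.766). The part of any of these cell types in the ARRDC4 and TXNIP values was not tested.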

How the data were processed

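The authors deposited log2 signals of 24123 probe sets on 12 arrays, and the submitters' processing notes name MAS5 and Affymetrix Expression Console 5.0. How arrays were scaled and low signals treated is not given in the sources used here. Of the non-control probe sets (124 are controls), the 30% of probe sets with the lowest mean were removed, which left 16799. Genes were named from the platform annotation where a probe set has 1 symbol, and the brightest probe set stood for a gene. Stents were compared in limma 3.58.1 (R 4.3.3, statmod 1.5.0) over all 12 arrays, with the pig as a random block (consensus correlation -0.0322) and a variance trend. For LAD against RCA the pig was a fixed block. P-values are two-sided and were adjusted by Benjamini-Hochberg over the 16799, with a threshold of 0.05. The background level is the 95th percentile of 59 control probe sets. The fit was checked only on simulated arrays with independent noise and no pig effect. That check cannot speak to arteries that share a pig. The number of arrays limits the precision, and with 2 pigs per stent p-values rest mostly on the spread between arteries.

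The genes and lists were chosen with earlier results of these data known. Named are both genes, for each list its called members or otherwise the 3 genes with the smallest p for SES minus BMS, a set of direct partners, and the 5 genes most like each member. No promoter or protein sequences were used here.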

Additional observations from a re-analysis of the deposited data

Results flagged for a closer look

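The LAD minus RCA gap of ARRDC4 was positive in both BMS pigs and negative in both ZES pigs, and the difference of these gaps was -2.13 (limma adjusted p 0.531). For TXNIP the signs were turned, and the difference of the gaps was 1.22 (limma adjusted p 0.620). In the pig of ZES 3 and ZES 4 the gaps were only -0.11 for ARRDC4 and 0.13 for TXNIP. The ZES side thus rested mostly on the pig of ZES 1 and ZES 2, with -1.60 and 1.70. The 28S control was 6.95 in ZES 1 and 14.10 in ZES 2, and BMS 1, of a BMS pair, read 14.57. The part of this control in the gaps was not tested, and the comparison was added after the values were seen.

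The mean of the glucocorticoid and FOXO responsive genes was 9.31 in ZES 1, far below the other 3 ZES arrays for so small a group, and TXNIP was lowest in that same array. BMS 2 had a lower mean of this list, 9.24, with TXNIP at 13.66. ZES 1 was also lowest of the ZES arrays for the mTORC1 list (9.10) and smooth muscle markers (10.10). It was highest of them for the glycolysis list (9.95) and T and NK cell markers (7.17). A link between the list and TXNIP was not tested. The mean of the monocyte and macrophage markers was 11.55 in BMS 3, far above the other 3 BMS arrays. Both were found with Dixon's test, by which chance picks out about 1 in 20 groups, and 48 groups were examined.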

How the results depend on the processing

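The ARRDC4 and TXNIP differences stayed within 1 residual SD of the values given, 0.707 for ARRDC4 and 0.472 for TXNIP, under quantile normalization, median centring, a pseudocount of 32, either array covariate, and without any one array or, added after seeing the data, any one pig. That yardstick is wider than the SE of the differences, 0.42 for ARRDC4 and 0.31 for TXNIP. With the GAPDH gap in the fit, SES minus BMS went from 3.15 to 3.84 for ARRDC4 and from -0.05 to -0.46 for TXNIP. The GAPDH gap did not overlap between SES and BMS, so this covariate cannot be fully told apart from the stent. The mean over all probe sets of a gene could not be taken, since each gene has 1. The counts of calls moved more. For SES minus BMS 114 became 199 with the pseudocount, 183 with no filter and 178 with only the 8 arrays of both groups. For ZES minus SES 12 became 6 without the pig block, 6 with quantile normalization, 5 with only those 8 arrays, 47 with the pseudocount and 48 with no filter. For ZES minus BMS 0 became 3 with no filter. Leaving out 1 array at a time gave 0 to 415 calls for SES minus BMS, 0 to 4 for ZES minus BMS and 0 to 158 for ZES minus SES. The cause was not tested. No paired analysis was possible because each pig carried 1 stent type and the labels give no shared replicate numbers.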
